A study of Mus musculus with 3 samples.

Results

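The genes described here code for the working parts of the lysosome: acid hydrolases and their activator, lysosomal membrane proteins, the cation channel Mcoln1, the transcription factor Tfeb, and subunits of the proton pump, the vacuolar ATPase (V-ATPase). They were taken from a list of 41 gene symbols, and a gene was counted as measured when the annotation of the array gave its symbol to at least 1 probe. Of the 41 genes 40 were measured, by 82 probes, among 19087 genes in all, and Atp6v0c was not analysed here. The arrays compared RNA of peripheral blood monocytes (PBMo), lung macrophages (lung Mϕ) and lung dendritic cells (lung DC), which had been sorted from untreated wild-type C57BL/6N mice of both sexes at 6 to 9 weeks of age. RNA of 4 mice was combined in each pool, 32 mice in all gave 8 pools of each cell type, and each pair of cell types was hybridized together on 4 of the 12 arrays, with the dyes balanced. PBMo were gated from blood as CD11b+ CD115+ cells of low side scatter, while both lung populations came from collagenase-digested whole lung as CD11c+ cells, lung Mϕ with high and lung DC with low autofluorescence. The sample labels name the lung Mϕ alveolar macrophages, although their gate did not separate alveolar from interstitial cells.

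Lysosomes are acidic organelles in which hydrolases break down glycans, lipids, proteins and glycogen delivered by endocytosis, phagocytosis and autophagy. The V-ATPase keeps them acidic: its cytosolic V1 sector hydrolyses ATP and turns a rotor, and its membrane-embedded V0 sector moves protons into the lumen. Macrophages of the lung take up surfactant, dead cells and inhaled particles, whereas dendritic cells are known to degrade internalized proteins more slowly, which leaves peptides for presentation to T cells. TFEB, the product of Tfeb, is a basic helix-loop-helix factor that binds the CLEAR element, a short palindrome found near the start of many lysosomal genes.

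The promoters with the core of this palindrome are shown first, because the CLEAR element is the sequence feature by which lysosomal genes are known. Since the element is known from such genes, its frequency among them was foreseen and is not a result of these data. The core is only part of the element, so a promoter that holds the core need not hold the whole. RefSeq promoters (build GRCm38.p6, 250 bases before to 50 after the gene start) were at hand for 35 of the 41 genes, all but Galns, Asah1, Atp6v0d2, Atp6v1b2, Atp6v1c1 and Atp6v1h. The core CACGTG, which reads the same on both strands, occurred in 12 of the 35 (34.3%): Arsa, Atp6v0b, Atp6v0d1, Atp6v1a, Gaa, Gla, Glb1, Lamp1, Lgmn, Mcoln1, Naglu and Sgsh. Over all 27025 genes with a promoter its share was 8.09%, and over protein-coding genes 8.91%. Over protein-coding genes measured on the array it was 9.79%. Over the 8012 protein-coding genes with at least 17 CpG dinucleotides, the median of the genes described, it was 13.3%. The longer palindrome TCACGTGA, which contains the core, occurred in 4 promoters (11.4%), those of Gla, Mcoln1, Atp6v0d1 and Atp6v1a. Its share was 1.12% of all genes, 1.63% of protein-coding genes measured on the array and 2.38% of the CpG-rich ones. Printed below are the windows of those 4 genes, of Lamp1, which held the core 4 times, of Naglu, whose RefSeq probe had the largest ratio of lung Mϕ to PBMo among probes of genes with the core, and of Sgsh, the only one of the 40 genes that was lower by more than 2-fold in lung Mϕ than in PBMo. Each is written 5′ to 3′ on the strand of the gene, with the core or the longer palindrome in capitals.
Gla (chrX:134601168-134601255, minus strand): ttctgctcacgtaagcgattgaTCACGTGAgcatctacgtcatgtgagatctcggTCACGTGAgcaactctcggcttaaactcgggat
Mcoln1 (chr8:3500423-3500505, plus strand): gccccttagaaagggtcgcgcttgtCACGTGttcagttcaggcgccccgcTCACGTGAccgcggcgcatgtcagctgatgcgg
Atp6v0d1 (chr8:105566036-105566093, minus strand): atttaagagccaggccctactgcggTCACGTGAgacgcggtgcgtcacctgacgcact
Atp6v1a (chr16:44139359-44139416, minus strand): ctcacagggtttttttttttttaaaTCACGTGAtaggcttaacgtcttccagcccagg
Lamp1 (chr8:13159075-13159176, plus strand): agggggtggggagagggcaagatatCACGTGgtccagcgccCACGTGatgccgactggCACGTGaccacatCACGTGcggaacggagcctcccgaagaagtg
Naglu (chr11:101069996-101070051, plus strand): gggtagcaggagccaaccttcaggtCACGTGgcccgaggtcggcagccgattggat
Sgsh (chr11:119355509-119355564, minus strand): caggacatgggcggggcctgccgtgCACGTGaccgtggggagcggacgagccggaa

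The stretch in capitals began 228 and 195 bases before the start of Gla, and 71 (core) and 46 bases before that of Mcoln1. It began 4 bases before the start of Atp6v0d1 and 132 before that of Atp6v1a. In Lamp1 the copies began 61, 45, 28 and 15 bases before the start, in Naglu 73 and in Sgsh 29. A match of letters is a description of the window and does not show that a factor was bound.

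The deposited value is 1 log2 ratio per spot for the comparisons of lung Mϕ with PBMo (Mϕ/PBMo), lung DC with PBMo (DC/PBMo) and lung Mϕ with lung DC (Mϕ/DC). It is positive when the cell type named first was higher, and probes of a gene were averaged. A log2 ratio above 1 or below -1, a change of more than 2-fold, was called higher or lower. Subtracting the DC/PBMo ratio from the Mϕ/PBMo ratio returned the Mϕ/DC ratio in each spot, to within 1.07e-14. The 3 columns are therefore contrasts of the same fitted model, which the study fitted over all its arrays, only 2 of them are independent, and none holds values of single pools, so that no p-value and no error between mice could be given. What could be measured is the spread between probes, which was uneven. The 10 RefSeq probes of Gusb, all of the same transcript, ranged from 1.21 to 1.28 (SD 0.02) in Mϕ/PBMo, and whether they repeat 1 sequence was not analysed here. The 2 probes of the same Sgsh transcript gave -0.17 and -3.35. The median SD between the probes of a gene, among the 22 genes with several probes, was 0.20 in Mϕ/PBMo, 0.19 in DC/PBMo and 0.29 in Mϕ/DC, and 18 genes had 1 probe. The ratios hold no signal level, so genes cannot be ranked by abundance, and in sorted bulk samples fewer cells with a transcript and less of it per cell cannot be told apart.

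Markers of the sorted cells followed the labels. In Mϕ/PBMo all 11 measured markers of alveolar macrophages were more than 2-fold higher and 6 of 7 monocyte markers lower, and in DC/PBMo 11 of 16 dendritic cell markers were higher. Markers of other cells moved too. Of 10 NK cell markers 9 were lower in Mϕ/PBMo, 7 higher in DC/PBMo (log2 ratios of all 10 from 0.45 to 1.90) and 10 lower in Mϕ/DC, and 4 of 7 T cell markers were higher in DC/PBMo. The lung DC also held alveolar macrophage transcripts, 8 of 11 being higher in DC/PBMo with a median of 3.51. Neutrophil and platelet markers were lower for 7 of 8 and 5 of 5 in Mϕ/PBMo and for 6 of 8 and 4 of 5 in DC/PBMo. Of 5 lung epithelium markers 3 were higher in Mϕ/PBMo and 4 in DC/PBMo, and of 11 genes of the dissociation response 4 and 5. The part of these cells and of the digestion in the ratios of the lysosomal genes was not tested.

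Lung Mϕ had the higher level in most lysosomal genes whose transcripts differed by more than 2-fold from PBMo. In Mϕ/PBMo 9 of the 40 were more than 2-fold higher (22.5%), where 5.47% of all genes were, and 1 was more than 2-fold lower (2.5%), where 4.49% of all genes were. The 9 higher genes were Atp6v0d2, Cd63, Atp6v1c1, Tpp1, Atp6ap2, Gusb, Atp6v0a1, Hexa and Atp6v1d, and the lower one was Sgsh. The median log2 ratio was 0.52 with quartiles of 0.16 and 0.98, against a median of 0.00 over all genes, and 32 of the 40 ratios lay above 0. The genes nearest the threshold were Atp6v1d at 1.04 just inside it and Gaa at 0.99 and Gla at 0.98 just outside. All genes include transcripts that none of the cells may hold, since no filter on signal could be set. The median absolute log2 ratio was 0.54 for the genes described and 0.13 for all genes.

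Between lung DC and PBMo the ratios fell on both sides of 0, with a median absolute log2 ratio of 0.35 (0.12 for all genes). Only Cd63 and Atp6v0d2 were more than 2-fold higher (5%, with 4.02% of all genes) and none was more than 2-fold lower (1.09% of all genes). The median was 0.04 with quartiles of -0.39 and 0.28, and 22 of the 40 ratios lay above 0. No gene was near the threshold from inside, with Atp6v0d2 at 1.56, and Lgmn at 0.92 was the nearest outside. In Mϕ/DC 6 of the 40 were more than 2-fold higher (15%, with 2.74% of all genes), namely Atp6v0d2, Atp6v1e1, Galns, Atp6v1c1, Tpp1 and Hexa, and 2 were more than 2-fold lower (5%, with 4.52% of all genes), Sgsh and Lgmn. The median was 0.54, and 35 of the 40 ratios lay above 0. Hexa at 1.03 and Lgmn at -1.02 were just past the threshold and Atp6v1b2 at 0.99 just short of it.

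**Figure D1:**
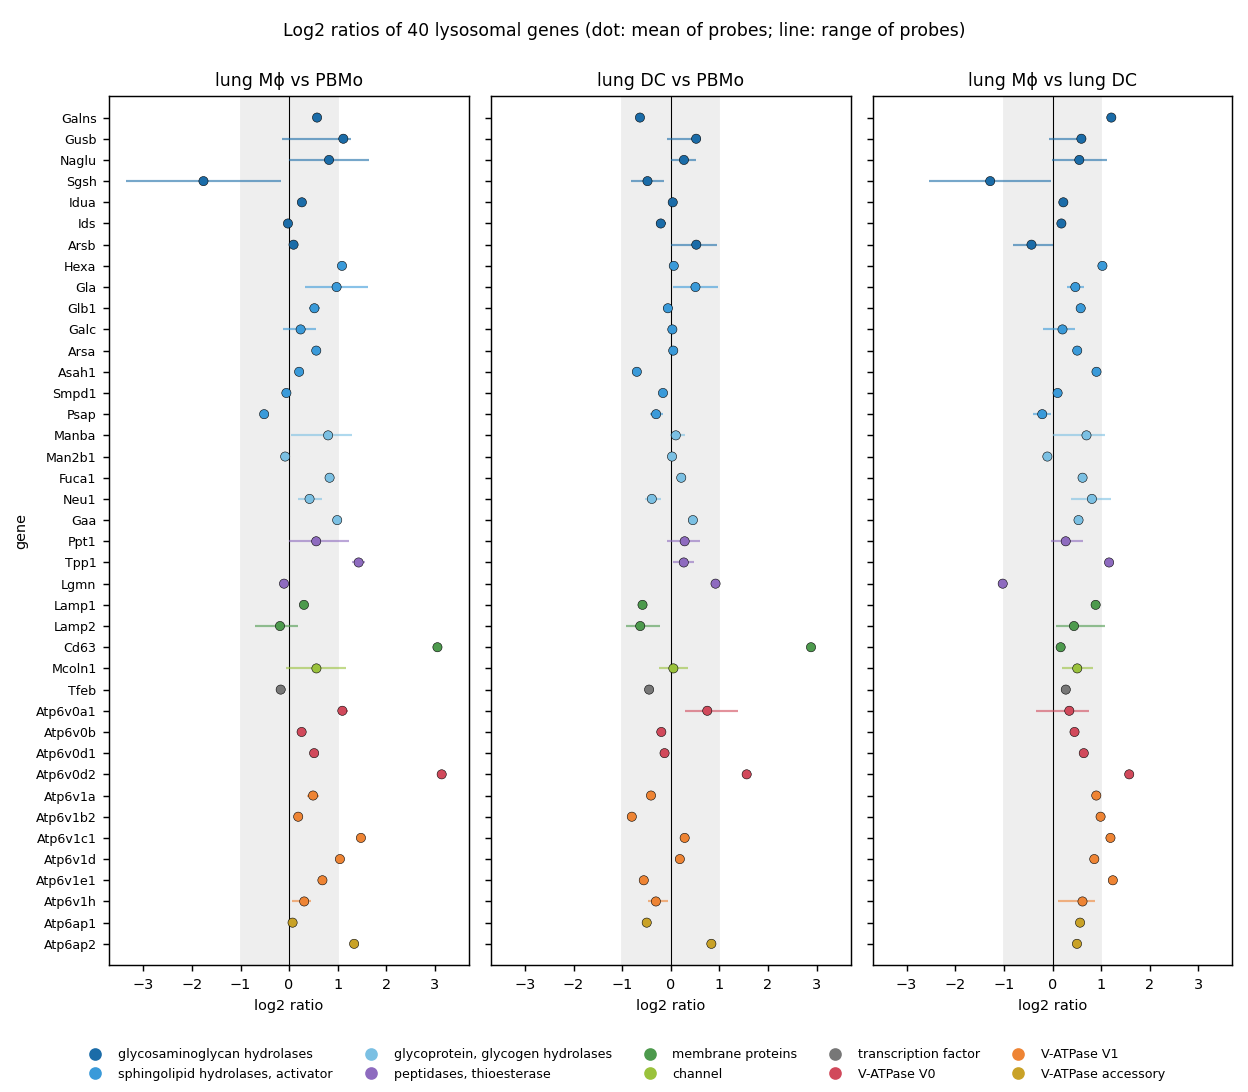
Log2 ratios (x axis, log2 units) of the 40 lysosomal genes (y axis, ordered and coloured by role) in each comparison, with a dot for the mean of the probes, a line for their range and a grey band for changes within 2-fold. Most dots lie right of 0 in Mϕ/PBMo (32 of 40) and Mϕ/DC (35 of 40), while in DC/PBMo they are spread on both sides (22 of 40 right of 0).

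Among the enzymes that degrade glycosaminoglycans, Gusb, the β-glucuronidase, was 2.17-fold higher in Mϕ/PBMo, with log2 ratios of 1.11 in Mϕ/PBMo, 0.52 in DC/PBMo and 0.59 in Mϕ/DC. Galns, a sulfatase of keratan and chondroitin sulfate, was 2.31-fold higher in Mϕ/DC (log2 1.21), with 0.57 in Mϕ/PBMo and -0.63 in DC/PBMo. Naglu, a glucosaminidase of heparan sulfate, had 0.82, 0.27 and 0.55, and triplets of log2 ratios are given from here on in the order Mϕ/PBMo, DC/PBMo and Mϕ/DC. The remaining enzymes of this group were closer to 0 or below it in Mϕ/PBMo. Idua, the iduronidase, had 0.26, 0.04 and 0.22, and Ids, the iduronate sulfatase, had -0.02, -0.21 and 0.18 with its 4 probes between -0.10 and 0.04 in Mϕ/PBMo. Arsb, which removes sulfate from dermatan sulfate, had 0.09, 0.52 and -0.43. Sgsh, the sulfamidase of heparan sulfate, was 3.39-fold lower in Mϕ/PBMo on the mean (-1.76, -0.48 and -1.28). That mean joined 2 probes of the same transcript that gave -0.17 and -3.35 in Mϕ/PBMo and -0.03 and -2.53 in Mϕ/DC, so both calls rest on 1 probe.

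Of the 8 genes of sphingolipid degradation, 1 was called. Hexa, the α subunit of β-hexosaminidase, which degrades gangliosides, was 2.12-fold higher in Mϕ/PBMo and 2.04-fold higher in Mϕ/DC (1.09, 0.06 and 1.03). Gla, the α-galactosidase that is deficient in Fabry disease, had 0.98, 0.51 and 0.47, and its probes of the same transcript gave 1.62 and 0.33 in Mϕ/PBMo. Glb1, the acid β-galactosidase, had 0.52, -0.06 and 0.58, and Arsa, the sulfatase of sulfatides, had 0.56, 0.05 and 0.51. These enzymes thus shared ratios of lung Mϕ above 0 against both other cells, and Hexa, Glb1 and Arsa lay near 0 in DC/PBMo. Asah1, the acid ceramidase, had 0.21, -0.70 and 0.90, the lowest of this group in DC/PBMo. Galc, the galactosylceramidase, had 0.24, 0.03 and 0.21, and Smpd1, the acid sphingomyelinase, had -0.06, -0.16 and 0.10. Psap, the precursor of the saposins that activate several of these enzymes, lay on the other side of 0, with -0.51, -0.30 and -0.21, and both its probes were below 0 in each comparison.

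None of the 5 glycosidases of glycoproteins and glycogen passed 2-fold on the mean of the probes, but 4 of them were on the same side. Gaa, the acid α-glucosidase that degrades glycogen, had 0.99, 0.45 and 0.54. Fuca1, the α-fucosidase, had 0.83, 0.21 and 0.62, and Manba, the β-mannosidase, had 0.80, 0.10 and 0.70. Neu1, the lysosomal sialidase, had 0.42, -0.39 and 0.81. Man2b1, the lysosomal α-mannosidase, was the exception with -0.08, 0.02 and -0.11. Among the enzymes that act on proteins, Tpp1, a tripeptidyl peptidase, was 2.69-fold higher in Mϕ/PBMo and 2.24-fold higher in Mϕ/DC (1.43, 0.27 and 1.16). Its probes gave 1.57 and 1.29 in Mϕ/PBMo. Ppt1, which removes palmitate from proteins, had 0.56, 0.28 and 0.27. Lgmn, the asparaginyl endopeptidase that processes cathepsins and antigens, had the opposite pattern, with -0.10, 0.92 and -1.02. It was thus highest in lung DC, as were only Arsb and Man2b1 among the rest. Of these 23 genes, Psap included, 3 were higher and 1 lower in Mϕ/PBMo (13% and 4.35%, with 5.47% and 4.49% of all genes). None passed 2-fold in DC/PBMo, where 4.02% of all genes were higher and 1.09% lower. In Mϕ/DC 3 were higher and 2 lower (13% and 8.70%, with 2.74% and 4.52% of all genes). The medians were 0.52, 0.05 and 0.51. The counts of higher genes depend on the probes: with the probe of the largest ratios 7 of the 23 were higher in Mϕ/PBMo and 6 in Mϕ/DC, against 7.17% and 3.67% of all genes.

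The membrane proteins differed widely among themselves. Cd63, a tetraspanin of late endosomes and lysosomes, was 8.29-fold higher in Mϕ/PBMo and 7.38-fold higher in DC/PBMo (3.05, 2.88 and 0.17), so that the lung populations were close to each other and PBMo stood apart. By size it ranked 100 from the top of all genes in Mϕ/PBMo and 80 from the top in DC/PBMo. Lamp1 and Lamp2, the most abundant glycoproteins of the lysosomal membrane, did not follow it. Lamp1 had 0.31, -0.58 and 0.89. Lamp2 had -0.19, -0.63 and 0.44, and its probes differed by transcript. The probe of one curated Lamp2 transcript gave 0.18, -0.91 and 1.09, that of another curated Lamp2 transcript -0.69, -0.76 and 0.07, and that of a cDNA clone -0.05, -0.21 and 0.17. All probes of Lamp1 and Lamp2 were below 0 in DC/PBMo. Mcoln1, the channel that releases calcium from lysosomes, had 0.56, 0.05 and 0.51. Tfeb itself had 1 probe and lay within 2-fold throughout, with log2 ratios of -0.17 in Mϕ/PBMo, -0.45 in DC/PBMo and 0.27 in Mϕ/DC.

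On the mean of the probes, all 12 measured V-ATPase genes of the list had their highest level in lung Mϕ. Of the 12 further V-ATPase genes outside it 5 lay below 0 in Mϕ/PBMo and 5 in Mϕ/DC. Their median absolute log2 ratio was 0.10 in both comparisons, below the median SD between probes, so many of these signs mark no clear difference. Genes near background could not be told from genes with equal levels. The ratios of the 12 listed genes lay between 0.07 and 3.14 in Mϕ/PBMo and between 0.35 and 1.58 in Mϕ/DC. In Mϕ/PBMo Atp6ap1 (0.07) and Atp6v1b2 (0.19) were nearer 0 than the median SD between probes of 0.20. For these genes the order of lung Mϕ and PBMo is within that spread. For Atp6v0a1 1 of the 3 probes lay below 0 in Mϕ/DC (-0.35), so on that probe lung DC was highest. Past 2-fold were 5 of the 12 in Mϕ/PBMo (41.7%, with 5.47% of all genes) and 3 of the 12 in Mϕ/DC (25%, with 2.74%), with none lower in either. The medians were 0.60 and 0.75. In DC/PBMo 1 of the 12 was higher, 5 lay above 0 and 7 below, and the median was -0.16.

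Atp6v0d2 stood out in the V0 sector. This form of the d subunit, known in mice from osteoclasts and macrophages, was 8.80-fold higher in Mϕ/PBMo (log2 3.14, rank 96 from the top of all genes), 2.95-fold higher in DC/PBMo (1.56) and 2.98-fold higher in Mϕ/DC (1.58). Its 3 levels were therefore stepped, with lung DC about midway between the others on the log2 scale. The widespread form of the same subunit, Atp6v0d1, had 0.51, -0.13 and 0.64. Atp6v0a1, a form of the proton-conducting a subunit, was 2.14-fold higher in Mϕ/PBMo (1.09, 0.75 and 0.35). Its 3 probes lay between 1.03 and 1.21 in Mϕ/PBMo. In Mϕ/DC the probe of a cDNA clone of Atp6v0a1 gave -0.35, against 0.75 and 0.64 for the curated transcript. Atp6v0b, a proteolipid of the rotor ring, had 0.26, -0.20 and 0.45.

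In the V1 sector the ratios to PBMo were unequal and those to lung DC lay closer together. Atp6v1c1, the C subunit that joins V1 to V0, was 2.78-fold higher in Mϕ/PBMo and 2.28-fold higher in Mϕ/DC (1.48, 0.29 and 1.19). Atp6v1e1, a subunit of the stalk, was 2.36-fold higher in Mϕ/DC (0.68, -0.56 and 1.24). Its probes gave 1.22 and 1.26 in the last comparison. Atp6v1d, of the central rotor, was 2.06-fold higher in Mϕ/PBMo (1.04, 0.19 and 0.86). Atp6v1a, the catalytic subunit, had 0.49, -0.41 and 0.90, and Atp6v1b2, a form of the B subunit that alternates with it in the ring, had 0.19, -0.80 and 0.99. Atp6v1h, a regulatory subunit, had 0.31, -0.31 and 0.62. The 6 subunits thus lay between 0.62 and 1.24 in Mϕ/DC, with a median of 0.94, and between 0.19 and 1.48 in Mϕ/PBMo. Of the accessory proteins, Atp6ap2, also known as the prorenin receptor, was 2.53-fold higher in Mϕ/PBMo (1.34, 0.83 and 0.50), where both its probes were past 2-fold (1.32 and 1.36). Atp6ap1, which helps to assemble the pump, had 0.07, -0.50 and 0.57.

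**Figure D2:**
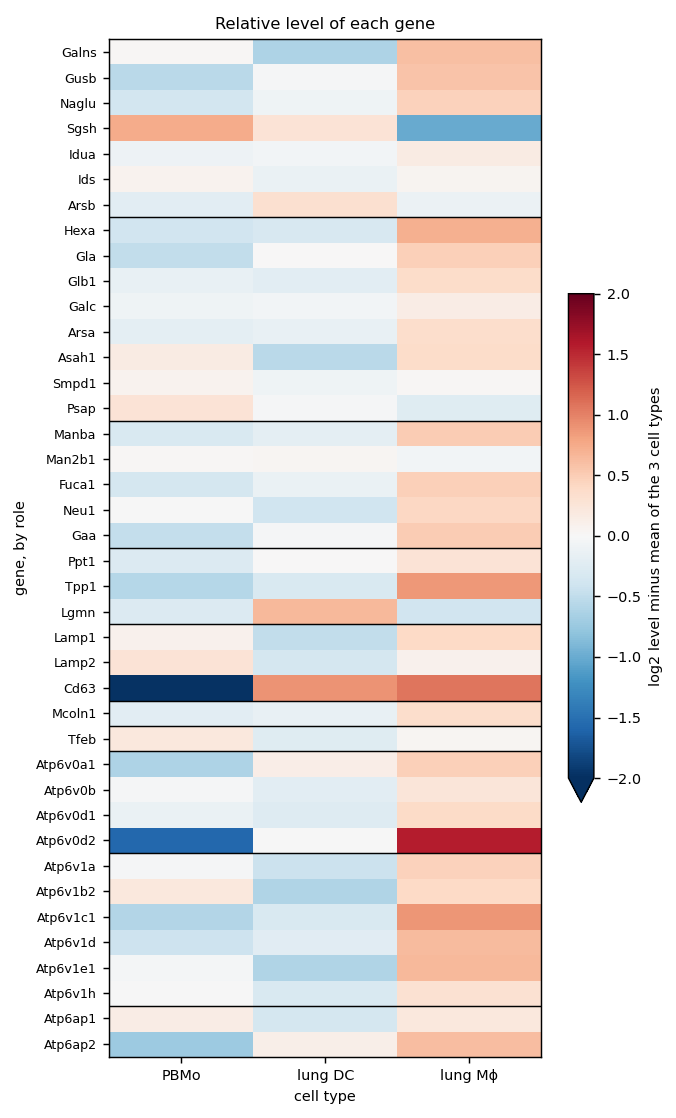
Relative level of each of the 40 genes (rows, grouped by role) in PBMo, lung DC and lung Mϕ (columns), as the log2 level minus the mean of the 3 cell types. Red marks a level above that mean and blue one below it, and the colour scale stops at 2 and -2. The lung Mϕ column is the highest of the row in 31 of 40 genes and in all 12 V-ATPase genes. In some of these, among them Atp6ap1 and Atp6v1b2, it leads by less than the median spread between probes. For Atp6v0a1 it leads on the mean, while 1 of the 3 probes was below 0 in Mϕ/DC. Cd63 is low in PBMo (-1.98) and high in both lung cells.

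Because the ratios close a ring, the order of the cell types could be read for each gene. Lung Mϕ had the highest level in 31 of the 40 genes (77.5%, against 37.8% of all genes), PBMo in 6 (15%, against 31.3%) and lung DC in 3 (7.5%, against 30.9%). The 6 genes highest in PBMo were Sgsh, Ids, Smpd1, Psap, Lamp2 and Tfeb, of which Ids (-0.02), Smpd1 (-0.06), Tfeb (-0.17) and Lamp2 (-0.19) had Mϕ/PBMo ratios nearer 0 than the median SD between probes, so that for these 4 the order of PBMo and lung Mϕ is within that spread. Some genes highest in lung Mϕ were within the spread too, Atp6ap1 (0.07) and Atp6v1b2 (0.19) in Mϕ/PBMo. In Mϕ/DC, with a median SD of 0.29, these were Cd63 (0.17), Galc (0.21), Idua (0.22) and Ppt1 (0.27). Atp6v0a1 had 0.35 there, with an SD between its own probes of 0.60. Man2b1, highest in lung DC, had 0.02 in DC/PBMo, below the median SD of 0.19. The median SD is a common measure, and single genes differed from it. In Mϕ/PBMo Ids had an SD of 0.06, Galc (0.24) one of 0.34 and Sgsh (-1.76) one of 2.25, and genes with 1 probe had none. The spread between probes does not measure the error between mice. The lowest level was in PBMo for 20 genes, in lung DC for 16 and in lung Mϕ for 4. For 12 of the 40 (30%, against 17.7% of all genes) the order was lung Mϕ over PBMo over lung DC, and 7 of these were V-ATPase genes, Atp6v0b, Atp6v0d1, Atp6v1a, Atp6v1b2, Atp6v1e1, Atp6v1h and Atp6ap1. The others were Galns, Glb1, Asah1, Neu1 and Lamp1. In DC/PBMo Glb1 (-0.06) and Atp6v0d1 (-0.13) were within the spread of 0.19. Only Hexa, Tpp1, Atp6v0d2 and Atp6v1c1 had a level in lung Mϕ more than 2-fold above both other cell types, which held for 2.33% of all genes.

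**Figure D3:**
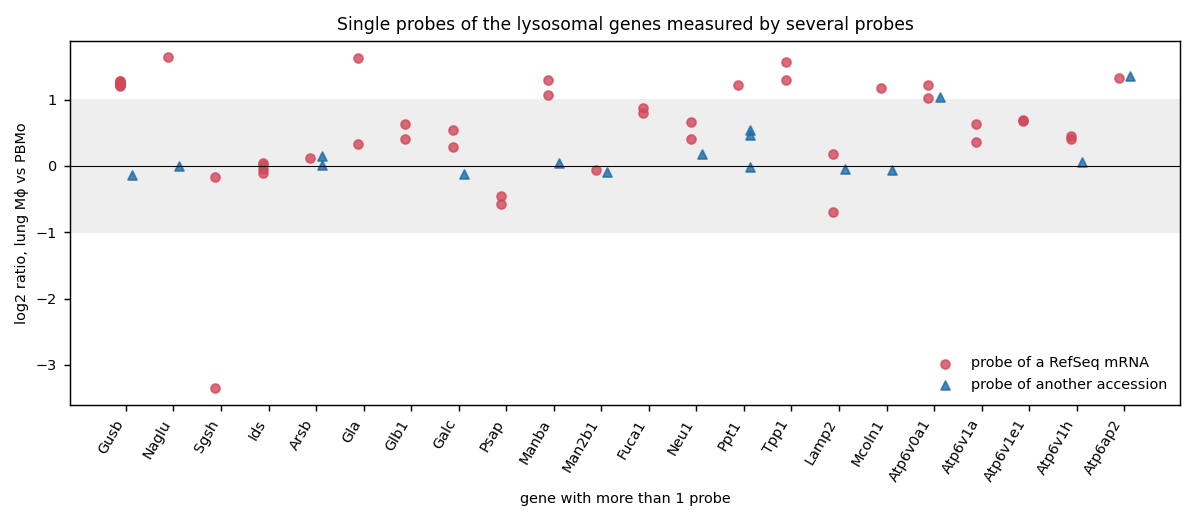
Log2 ratio in Mϕ/PBMo (y axis, log2 units) for each probe of the 22 lysosomal genes with more than 1 probe (x axis). Circles are probes of curated RefSeq mRNAs, triangles probes of other accessions, and the grey band marks changes within 2-fold. Triangles mostly lie near 0, also where the circles of the same gene are past 2-fold, as for Gusb, Naglu, Manba and Mcoln1. Those of Ppt1 lie between -0.01 and 0.55, and the circles of Sgsh are far apart.

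Several of these genes were within 2-fold on the mean of all probes and past it on some. Of the 82 probes, 66 named a curated RefSeq mRNA and 16 another accession, such as a cDNA clone or an expressed tag. In Mϕ/PBMo the median absolute log2 ratio was 0.67 for the RefSeq probes and 0.11 for the others, and 27 of 66 (40.9%) and 2 of 16 (12.5%) were past 2-fold. Of these 27 probes 10 were those of Gusb, and without Gusb 17 of 56 RefSeq probes (30.4%) and 2 of 15 others (13.3%) were. Over all genes the shares were 11.9% of 25003 RefSeq probes and 6.59% of 8650 others. With RefSeq probes alone, Naglu had 1.64, 0.53 and 1.11, Manba 1.18, 0.14 and 1.04, Mcoln1 1.18, 0.35 and 0.82, and Ppt1 1.23, 0.59 and 0.63. Their other probes gave between -0.05 and 0.55 in Mϕ/PBMo. On that basis 13 of the 40 genes were more than 2-fold higher in Mϕ/PBMo and 1 lower, against 6.36% and 5.06% of the 16544 genes with such a probe. In DC/PBMo the counts were 2 higher and 0 lower, against 4.76% and 1.28%. In Mϕ/DC 9 were higher and 2 lower, against 3.35% and 5.21%. The added genes were Naglu, Manba, Ppt1 and Mcoln1 in the first comparison and Naglu, Manba and Neu1 in the last. This choice of probes was made after the values had been seen.

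The ratios of genes with and without the core CACGTG were set side by side. In Mϕ/PBMo the median log2 ratio was 0.52 for the 12 genes with the core and 0.49 for the 22 measured genes whose promoter lacked it. In DC/PBMo the medians were -0.01 and 0.05, and in Mϕ/DC 0.52 and 0.39. None of the 12 genes with the core was more than 2-fold higher in either comparison of lung Mϕ, while 1 was lower in Mϕ/PBMo (Sgsh) and 2 in Mϕ/DC (Sgsh and Lgmn). Among the 22 without it 7 were higher in Mϕ/PBMo and 3 in Mϕ/DC, and 0 were lower in either. The 6 genes with no promoter at hand entered neither group. Among them were Atp6v0d2 and Atp6v1c1, higher in both comparisons of lung Mϕ, and Galns, higher in Mϕ/DC. The calls of Sgsh rest on 1 of its 2 probes. Over all genes 5.47% were higher and 4.49% lower in Mϕ/PBMo, and 2.74% and 4.52% in Mϕ/DC. These counts depend on the probes. With RefSeq probes alone 2 of the 12 with the core were higher in Mϕ/PBMo (Naglu and Mcoln1) and 1 in Mϕ/DC (Naglu), against 9 and 5 of the 22 without it.

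Other genes of the lysosome passed 2-fold in both directions. Of 105 further genes listed, 98 were measured. In Mϕ/PBMo 21 were more than 2-fold higher and 9 lower (21.4% and 9.18%, with 5.47% and 4.49% of all genes). In DC/PBMo 8 were higher and 2 lower (8.16% and 2.04%, with 4.02% and 1.09%). In Mϕ/DC 19 were higher and 6 lower (19.4% and 6.12%, with 2.74% and 4.52%). Their medians were 0.15, 0.01 and 0.27. Among the 40 genes described the higher shares were 22.5%, 5% and 15%, so shares of this size were not particular to them. The cathepsins, lysosomal proteases, had 4 of 12 higher and 1 lower in Mϕ/PBMo and 6 of 12 higher in Mϕ/DC, with none lower. In Mϕ/PBMo the higher ones were Ctsk (4.26), Ctsd (3.41), Ctsl (2.75) and Ctsf (2.16), which had 1.98, 1.88, 1.79 and 1.04 in Mϕ/DC. In DC/PBMo 3 of 12 were higher and none lower, Ctsk (2.28), Ctsd (1.53) and Ctsf (1.12). Of 20 other soluble proteins 5 were higher and 3 lower in Mϕ/PBMo. Pla2g15, the lysosomal phospholipase, was 6.60-fold higher (2.72), whereas Plbd1, a phospholipase B-like protein, was 17.3-fold lower (-4.11). Of 28 other membrane proteins 6 were higher and 4 lower, with the sialomucin Cd164 at 2.80, Gpnmb at 2.26, the channel Mcoln3 at 2.09 and the divalent metal transporter Slc11a1 at -3.11. Abcb9, a peptide transporter of the lysosomal membrane, had -1.28 in Mϕ/PBMo and 1.44 in DC/PBMo. The 12 further V-ATPase genes had a median of 0.01 in Mϕ/PBMo, with 7 above 0 and 5 below. Only Atp6v1g1, the widespread form of the G subunit, passed 2-fold, with 1.05 in Mϕ/PBMo and 1.06 in Mϕ/DC. The other forms of the a subunit did not follow Atp6v0a1. Tcirg1 had -0.18, -0.22 and 0.04, Atp6v0a2 -0.33, 0.28 and -0.61, and Atp6v0a4 -0.02, -0.0004 and -0.02.

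**Figure D4:**
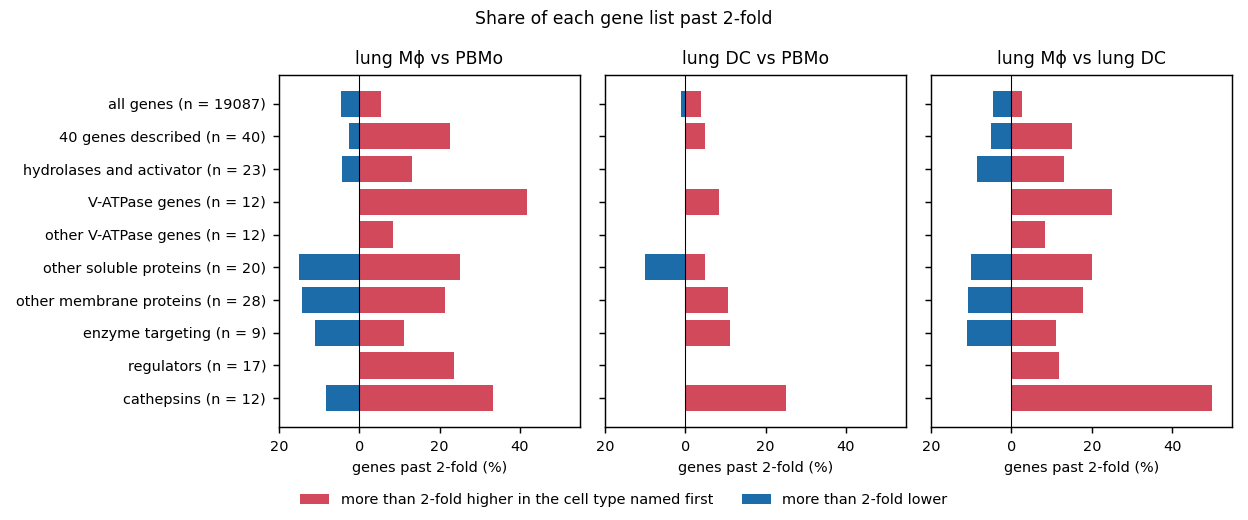
Share of each gene list (y axis, with the number of genes measured) that was more than 2-fold higher (red, to the right of 0) or lower (blue, to the left) in the cell type named first, in percent (x axis). The 12 V-ATPase genes have the longest red bar in Mϕ/PBMo (41.7%) and no blue one. The cathepsins have the longest red bar in Mϕ/DC (50%).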

How the data were processed

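PBMo, lung Mϕ and lung DC were compared on 2-colour oligonucleotide arrays. The deposited values are log2 ratios which the authors made with GenePix image analysis, spot weights, Edwards background correction with an offset, LOESS normalization within arrays and contrasts of an overall limma model (version not given in the sources used here). RNA had been amplified, and amplification can compress ratios. The log2 ratios were used without further scaling. The table holds 45220 spots in an order that differs from the annotation. The order was recovered from the values as the best of 32 layouts: the share of variance lying between transcripts was 0.907 over 5899 of them with several probes, the next layout gave 0.413 and the order as deposited 0.389. Chosen on 2950 transcripts, the same layout gave 0.919 on the 2949 left out.

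Of 33709 listed probes, 33653 had 1 symbol and 56 several, which entered no gene, and 11511 spots were not listed. The gene number of 33517 probes was in the RefSeq table, where 0 symbols differed. Genes were described by the mean of their probes, with 2-fold as the threshold. With 1 model contrast per comparison no test was made, and the precision is limited by how many arrays there were. The genes and lists were chosen with earlier results of these data known. All measured genes of the list are named, and of other lists some of those past 2-fold, at most 4 a list and comparison. Tcirg1, Atp6v0a2, Atp6v0a4 and Tfe3 are named although within 2-fold. Sgsh, Lamp1, Naglu and the genes with the longer palindrome were picked for printing after their values had been seen. Alternatives were the probe with the largest ratios, the median of the probes, each probe, every probe past the threshold, median-centred columns, and thresholds of 1.5-fold and 4-fold. RefSeq probes alone, counts without Atp6v0d2 and Cd63, and counts of probes without Gusb were added after seeing the data. A planned comparison of protein sequences was not run. The scripts were tested on simulated data. Python 3.11.15, numpy 2.4.6, pandas 2.3.3 and matplotlib 3.10.9 were used.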

Additional observations from a re-analysis of the deposited data

Results flagged for a closer look

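None of the 40 genes lay more than 2-fold from PBMo in opposite directions in the 2 lung populations. Over all genes 46 (0.241%) did, and 2 of these were other lysosomal genes, each measured by 1 probe. Abcb9, a peptide transporter of the lysosomal membrane, had a log2 ratio of -2.72 in Mϕ/DC, with -1.28 in Mϕ/PBMo and 1.44 in DC/PBMo. Igf2r, the cation-independent mannose 6-phosphate receptor that carries hydrolases to lysosomes, had -2.62, with -1.30 and 1.32. They were singled out because the 2 lung populations lay on opposite sides of PBMo. The differences were not tested, since the values of single pools were not analysed here.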

How the results depend on the processing

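No call changed its direction. With the probe with the largest ratios, 3 ratios within 2-fold changed sign, Atp6v0a1 in Mϕ/DC from 0.35 to -0.35, Lamp2 in Mϕ/PBMo from -0.19 to 0.18 and Glb1 in DC/PBMo from -0.06 to 0.05. Counting each of the 82 probes gave 28 higher in Mϕ/PBMo and 13 in Mϕ/DC, against 5.74% and 3.19% of all probes. Without Gusb, which has 10 of the 28, 18 and 13 of 71 probes were higher, against 5.72% of all probes in Mϕ/PBMo. The probe with the largest ratios gave 14 and 10 genes, against 7.17% and 3.67% of all genes. With every probe required past the threshold, 0 genes were lower in Mϕ/PBMo (3.6% of all genes) and 1 in Mϕ/DC, since the probes of Sgsh differ. At 1.5-fold 15 genes were higher in Mϕ/PBMo, 5 higher and 4 lower in DC/PBMo, and 17 higher in Mϕ/DC. The background shares were then 10.4%, 7.86%, 3.80% and 7.15%. At 4-fold 2 genes were higher and 0 lower in Mϕ/PBMo, against 1.68% and 1.38% of all genes. In DC/PBMo 1 was higher (1.09% of all genes), and in Mϕ/DC 0 were higher and 0 lower. Without Atp6v0d2 and Cd63 the count of higher genes in DC/PBMo was 0, against 4.01% of all genes. The other 55 settings of counts, medians and the order over the 40 genes stayed within 1.5 times the count or within the spread between probes. For the hydrolases and the V-ATPase taken separately 20 of 102 settings moved further, all of them counts. The 3 hydrolases higher in Mϕ/PBMo became 7 with the probe of the largest ratios and 6 with RefSeq probes (7.17% and 6.36% of all genes). They became 18 of 55 probes, 10 of them of Gusb (5.74% of all probes), 8 at 1.5-fold (10.4%) and 0 at 4-fold (1.68%). In Mϕ/DC the 3 became 6 and 6 (3.67% and 3.35%), 8 of 55 probes (3.19%), 8 at 1.5-fold (7.15%) and 0 at 4-fold. Of the V-ATPase genes 1 was higher at 4-fold in Mϕ/PBMo (1.68% of all genes) and 8 at 1.5-fold in Mϕ/DC (7.15%). With the probe of the largest ratios 2 were higher in DC/PBMo (5.35%). No paired analysis was possible because the table holds 1 model contrast per comparison and no values of single pools. Leaving out a pool or an array was not possible for the same reason. How far each spot stood above background was not analysed here, so genes near background cannot be told from genes with equal levels.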

Other observations

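Genes that deliver hydrolases to the lysosome and regulators of the lysosome were already counted among the 105 further genes above, and are described here separately. Of 9 targeting genes 1 was more than 2-fold higher and 1 lower in Mϕ/PBMo (11.1% each, with 5.47% and 4.49% of all genes). Sort1, the sorting receptor sortilin, had log2 ratios of 2.46 in Mϕ/PBMo, 0.39 in DC/PBMo and 2.07 in Mϕ/DC. Of 17 regulators 4 were higher in Mϕ/PBMo (23.5%, with 5.47% of all genes) and 2 in Mϕ/DC (11.8%, with 2.74%). In DC/PBMo 0 passed 2-fold, where 4.02% of all genes were higher and 1.09% lower. Tfec and Mitf, which belong to the same transcription factor family as Tfeb, had 2.60 and 1.42 in Mϕ/PBMo and 2.03 and 1.51 in Mϕ/DC. Tfe3, of the same family, was within 2-fold like Tfeb, with -0.30 in Mϕ/PBMo, -0.32 in DC/PBMo and 0.02 in Mϕ/DC. Fnip2 and Lamtor3, of the nutrient-sensing machinery on the lysosomal surface, had 1.19 and 1.16 in Mϕ/PBMo, with 0.82 and 0.95 in Mϕ/DC.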
